A study of Mus musculus with 4 samples.

Results

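Chemokines and their receptors were followed in N2a (Neuro2a), a line of mouse neuroblastoma cells, after an siRNA against Men1 and after a scramble siRNA. Members were taken by symbol from the array annotation: every target named Ccl, Cxcl, Ccr or Cxcr with a number, together with Cx3cl1, Cx3cr1, Xcl1 and Xcr1. The rule found 70 of 44170 targets, which stand for 53 of 24171 genes. Those genes are 23 CC ligands, 12 CXC ligands, the ligands Cx3cl1 and Xcl1, 10 CC receptors, 5 CXC receptors and the receptor Cx3cr1. The rule itself uses symbols and no measured value.

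Chemokines are small secreted proteins that guide the movement of cells, and they are classed by the spacing of the first cysteines of the mature protein. They bind receptors with 7 membrane-spanning segments that signal through inhibitory G proteins. Homeostatic chemokines place cells in tissues at rest, while inflammatory ones are switched on by NF-kB and interferon signalling. In the nervous system the best known pairs are Cxcl12 with Cxcr4, which guides migrating neurons, and neuronal Cx3cl1 with microglial Cx3cr1.

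The 4 single-colour arrays were 2 of N2a cells labelled Men1 knockdown, transfected with Men1 siRNA, and 2 of N2a cells labelled control, transfected with scramble siRNA. Both groups grew in the same serum-containing medium and went through transfection. Men1 encodes menin, a scaffold protein of the MLL histone methyltransferase complexes. The siRNA dose, the time to harvest and whether replicates were separate cultures are not stated in the labels. The p-values therefore measure only how far these arrays spread, and that spread may be technical. Transfection leaves a mixed population in which cells can differ in knockdown.

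Array medians lay between 145.9 and 147 for Men1 siRNA and between 146 and 151 for scramble siRNA. The random control probes read 48.1 and 52.3 with Men1 siRNA and 45.5 and 42.8 with scramble siRNA, and intensities of at least 100 were counted as above background. At its brighter target Men1 read 2764 and 4109 with Men1 siRNA, against 6985 and 6222 with scramble siRNA. That log2 change of -0.97 ± 0.35 (moderated SE, n = 2 arrays per group) did not pass limma's test (adjusted p = 0.314). The other Men1 target read 2989 and 3802 with Men1 siRNA, against 3843 and 3824 with scramble siRNA. Its log2 change was -0.19 ± 0.33 (limma adjusted p = 0.842). The targets thus differed in the size of the change, and neither passed limma's test. Of the neuroblast markers, Stmn2 and Gap43 averaged 23951 and 21884 with Men1 siRNA, against 16739 and 16547 with scramble siRNA. Th, the enzyme gene of catecholamine synthesis, read 142 and 113 with Men1 siRNA and 95 and 129 with scramble siRNA. Markers of epithelial, fibroblast, endothelial and myeloid cells were present on arrays labelled as this neuronal line, and their values stand beside the results they move with.

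Promoters of 7 members are shown first: Cxcl15, Cxcl12 and Cxcl13, CXC ligands whose brightest targets differed by at least 1 log2 unit with separate groups, and 4 inflammatory CXC ligands whose promoters hold NF-kB matches. Cxcl16 and Cxcl17 are named without a sequence. Each line is the 200 bases just before the annotated start, read 5′ to 3′ from RefSeq (GRCm38.p6). Capitals mark matches, on either strand, to the NF-kB consensus, the TATA box (TATAAA), AP-1 (TGANTCA) or the core of the interferon-stimulated response element, which is GAAA repeated after a gap of 2 bases. The run of 11 capitals in Cxcl1, Cxcl2 and Cxcl3 holds an NF-kB match on each strand, shifted by 1 base. Cxcl15 (chr5:90794334-90794533, plus strand), Cxcl12 (chr6:117168335-117168534, plus strand) and Cxcl13 (chr5:95956739-95956938, plus strand) are followed by Cxcl1 (chr5:90891045-90891244, plus strand), Cxcl2 (chr5:90903699-90903898, plus strand), Cxcl3 (chr5:90785901-90786100, plus strand) and Cxcl10 (chr5:92348890-92349089, minus strand).
Cxcl15: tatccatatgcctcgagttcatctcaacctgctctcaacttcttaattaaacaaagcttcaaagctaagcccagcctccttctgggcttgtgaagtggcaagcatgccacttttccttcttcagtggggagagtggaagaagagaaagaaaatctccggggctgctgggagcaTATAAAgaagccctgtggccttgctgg
Cxcl12: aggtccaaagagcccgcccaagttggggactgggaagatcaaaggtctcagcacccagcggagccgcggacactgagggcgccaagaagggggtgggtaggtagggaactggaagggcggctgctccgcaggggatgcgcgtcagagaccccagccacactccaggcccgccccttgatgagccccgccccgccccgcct
Cxcl13: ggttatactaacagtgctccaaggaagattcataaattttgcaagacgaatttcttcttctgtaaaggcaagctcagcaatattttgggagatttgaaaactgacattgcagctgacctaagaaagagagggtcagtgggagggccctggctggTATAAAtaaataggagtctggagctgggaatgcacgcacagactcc
Cxcl1: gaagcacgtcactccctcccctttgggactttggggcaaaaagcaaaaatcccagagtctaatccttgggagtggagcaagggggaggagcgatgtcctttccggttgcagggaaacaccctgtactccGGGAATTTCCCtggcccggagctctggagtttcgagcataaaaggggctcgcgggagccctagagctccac
Cxcl2: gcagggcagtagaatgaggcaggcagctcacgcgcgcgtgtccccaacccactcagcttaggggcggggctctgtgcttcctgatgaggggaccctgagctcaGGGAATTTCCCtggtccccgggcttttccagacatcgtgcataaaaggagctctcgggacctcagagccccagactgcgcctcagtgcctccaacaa
Cxcl3: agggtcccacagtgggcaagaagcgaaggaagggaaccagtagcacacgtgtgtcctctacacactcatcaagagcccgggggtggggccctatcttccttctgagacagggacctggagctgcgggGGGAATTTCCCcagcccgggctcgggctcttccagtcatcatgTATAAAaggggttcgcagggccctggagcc
Cxcl10: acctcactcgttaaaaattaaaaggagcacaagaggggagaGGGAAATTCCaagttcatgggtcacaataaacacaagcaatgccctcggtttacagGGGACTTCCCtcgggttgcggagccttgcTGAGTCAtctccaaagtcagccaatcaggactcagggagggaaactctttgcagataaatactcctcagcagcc
Cxcl1, Cxcl2, Cxcl3 and Cxcl10 hold NF-kB matches in this window, and Cxcl10 holds an AP-1 match as well. Outside the printed bases, Cxcl10 also holds a match to the interferon element core. That match lies in the wider window searched, from 250 bases before to 50 after the start. Cxcl15, Cxcl3 and Cxcl13 hold a TATA box, and none of the 4 motifs is written in the Cxcl12 window.

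The comparison asks which chemokines and receptors differ in level with Men1 siRNA. The values were low for most of the family: 16 of 53 genes stayed under 100 on all 4 arrays, 15 reached it on some arrays without doing so on both arrays of a group, and 22 reached it on both arrays of at least 1 group. No member passed the threshold of an adjusted p of 0.05 in limma, where 94 of all 24171 genes (0.389%) did, and with any 1 array left out no gene passed. Tested target by target, no member target passed either, against 150 of 44170 (0.34%), and the smallest adjusted p was 0.077. With no adjustment, 9 of 53 members (17.0%) had a limma p under 0.05, 5 higher and 4 lower, against 14.2% of all genes. The median log2 change of the members was 0.12, against 0.06 for all genes. Both the share and the median lay near those of all genes. For a single gene, the smallest two-sided p that exact permutation allows with 2 arrays per group is 0.33.

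**Figure D1:**
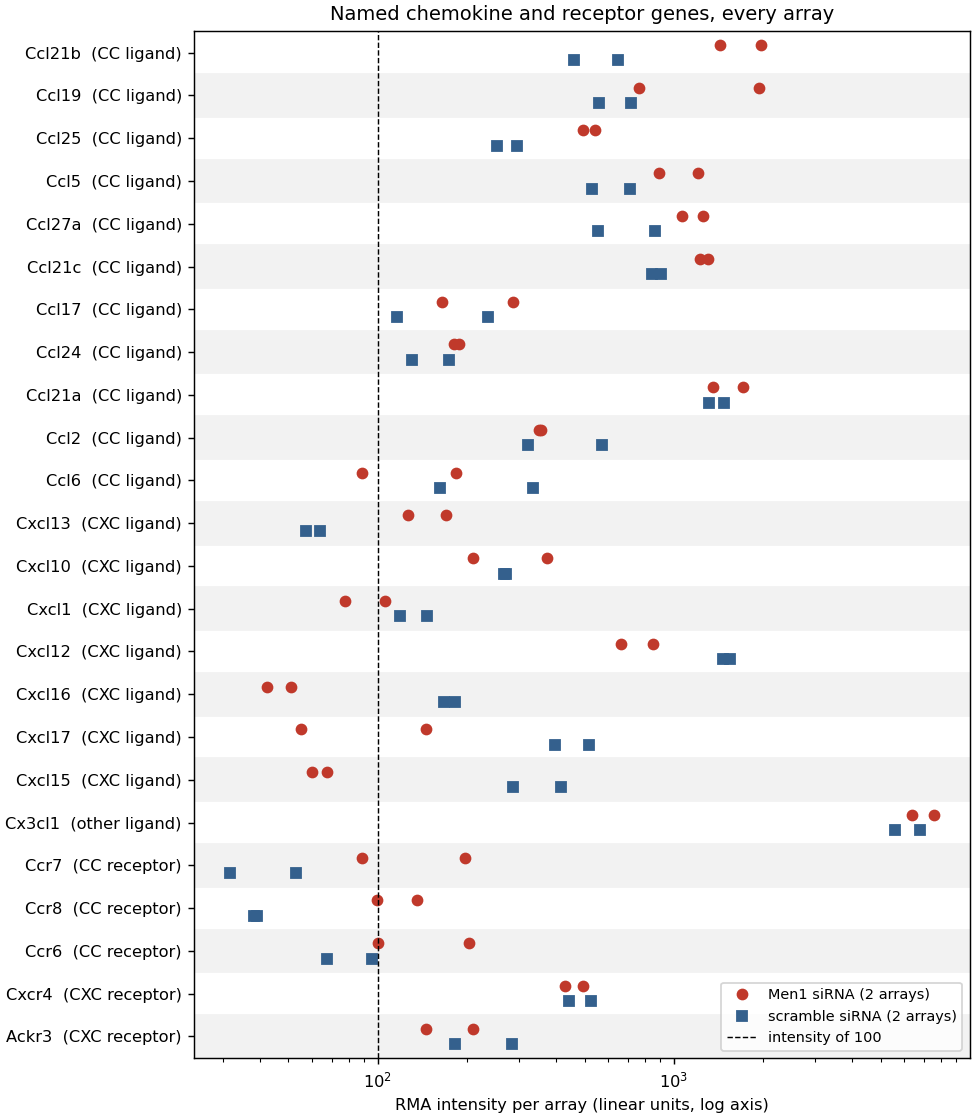
Intensity on each array, on a log axis, for the 24 named members. Red circles are the 2 Men1 siRNA arrays, blue squares the 2 scramble siRNA arrays, and the dashed line marks an intensity of 100. Cxcl15, Cxcl16 and Cxcl13 lie on opposite sides of that line in the 2 groups, and Ccl21b and Cxcl12 lie above it in both with separate groups.

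Among the CXC ligands, 6 of 12 lay lower on both Men1 siRNA arrays than on both scramble siRNA arrays, where 21.7% of all genes did, and 2 lay higher, where 25.8% of all genes did. The 6 include Cxcl3 and the 2 include Cxcl11, both under 100 on all arrays, where values have no order. Cxcl15 (gene ID 20309, chr5:91223566-91230927 on MM9), a chemokine best known from mouse lung epithelium, read 67.6 and 59.9 with Men1 siRNA, against 286 and 416 with scramble siRNA. Both Men1 siRNA arrays were under 100 and the groups did not overlap. Cxcl15 was at least 3.45-fold lower by group means, a bound that sets the Men1 siRNA arrays at 100. Its fitted log2 change was -2.44 ± 0.35 (SE, n = 2 per group; limma adjusted p = 0.076), the smallest adjusted p in the family. It passed when 32 was added before the log (log2 change -1.98, adjusted p = 0.0465) and with a prior that follows intensity (adjusted p = 0.0435). It also passed when only genes at 100 or more on both arrays of a group were kept (adjusted p = 0.0181). Cxcl15 entered that set only through the scramble siRNA arrays, where it was high, so that pass is no separate support.

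Cxcl17 (gene ID 232983, chr7:26185071-26197905), a chemokine of mucosal epithelia, read 55 and 146 with Men1 siRNA, against 519.5 and 399 with scramble siRNA. The Men1 siRNA arrays were on either side of 100 and both lay below the scramble siRNA arrays, with a log2 change of -2.35 ± 0.53 (limma adjusted p = 0.169). Without Men1 siRNA replicate 1 the change was -1.64, and without replicate 2 it was -3.05. Cxcl17 lies wholly within a longer transcript, 4732471J01Rik, which read 115 and 128 with Men1 siRNA and 125 and 98.9 with scramble siRNA and did not share the difference.

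Cxcl16 (gene ID 66102, chr11:70267890-70273486), a membrane-bound ligand of Cxcr6 and scavenger receptor, read 51.2 and 42.3 with Men1 siRNA, against 167 and 182 with scramble siRNA. It was at least 1.74-fold lower, with a fitted log2 change of -1.91 ± 0.32 (limma adjusted p = 0.0952). Its other target gave -1.18, at 41.8 and 47.6 with Men1 siRNA, against 113 and 90.9 with scramble siRNA. Those groups were apart, but only scramble siRNA replicate 1 reached 100. Cxcl16 passed only with dim genes left out (adjusted p = 0.0242), among the alternatives tried. It too entered that set only through the scramble siRNA arrays, so that pass is no separate support. The neighbouring gene Zmynd15 overlaps the Cxcl16 span by 364 bases and read 143 and 87.7 with Men1 siRNA, against 51.9 and 112 with scramble siRNA. Cxcr6, the receptor of Cxcl16, read 40.3 and 58.4 with Men1 siRNA, against 84.6 and 88.2 with scramble siRNA, and was under 100 on all arrays.

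Cxcl12 (gene ID 20315, chr6:117118604-117125032), the stromal factor that binds Cxcr4 and Ackr3, read 662 and 853 with Men1 siRNA and 1548 and 1469 with scramble siRNA. All 4 arrays were above 100 and the groups were separate, with 0.498 times the scramble level and a log2 change of -1.005 ± 0.32 (limma adjusted p = 0.276). Its receptor Cxcr4 read 430.3 and 494 with Men1 siRNA and 526 and 443 with scramble siRNA at the brightest target, with overlapping groups and a log2 change of -0.07 ± 0.32 (adjusted p = 0.943). The other Cxcr4 target gave -0.97 ± 0.53, so the 2 targets of that gene disagreed in size. Ackr3, listed on the array as Cxcr7 and known as a scavenger of Cxcl12, read 209.8 and 145 with Men1 siRNA, against 284 and 182 with scramble siRNA, and also overlapped (log2 change -0.38 ± 0.39).

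**Figure D2:**
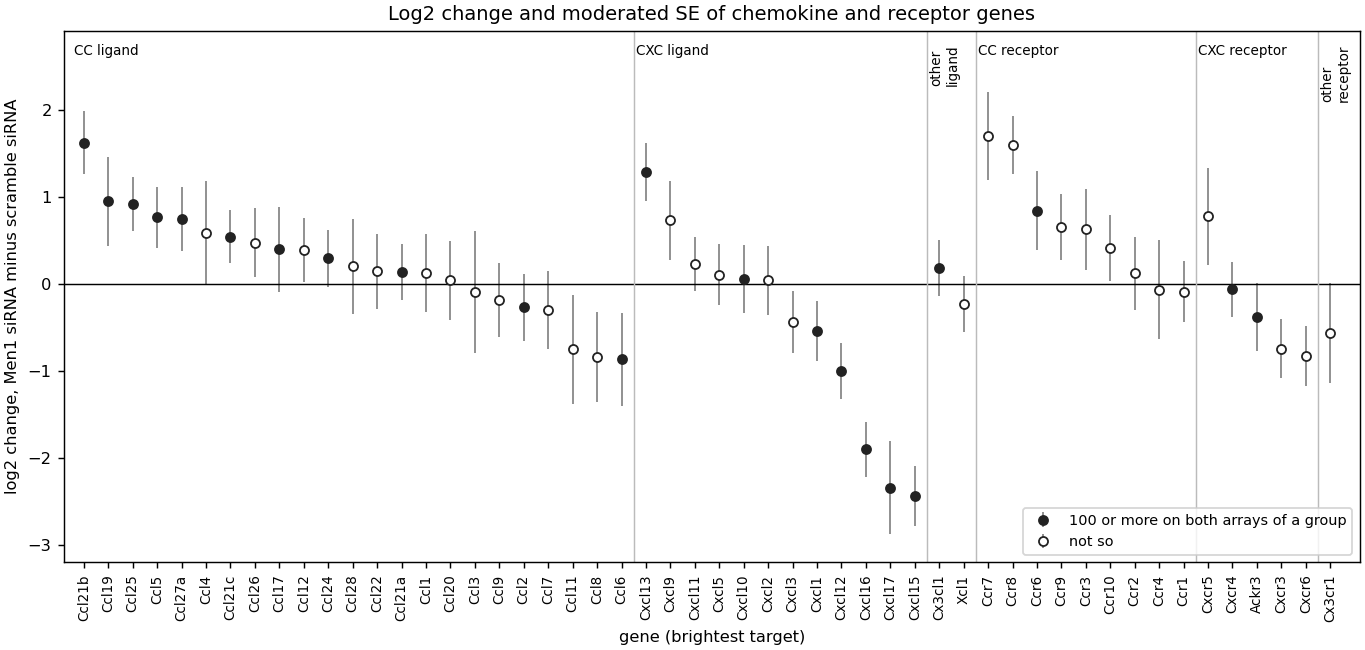
Log2 change (Men1 siRNA minus scramble siRNA) with its moderated SE for 52 members, ordered by class. Filled points reached 100 on both arrays of a group. The CXC ligands span -2.44 to 1.28, and the CC ligands -0.87 to 1.62.

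Of the inflammatory CXC ligands, Cxcl10 was above 100 on all arrays, and Cxcl1, Cxcl2, Cxcl3 and Cxcl5 were near or under it. Cxcl1, a neutrophil attractant, read 77.5 and 106 with Men1 siRNA, against 119 and 147 with scramble siRNA (log2 change -0.55 ± 0.34, adjusted p = 0.521). Cxcl2, Cxcl3 and Cxcl5 stayed under 100 on every array, and no order can be read from their values. Cxcl10, induced by interferon, read 211 and 373 with Men1 siRNA, which bracket the 267 and 272 of scramble siRNA (log2 change 0.06 ± 0.39). It overlaps Art3, whose targets read between 78.6 and 140 over the 4 arrays. The other interferon-induced ligands of Cxcr3 were dim: Cxcl11 stayed under 100 throughout, and Cxcl9 passed it only on Men1 siRNA replicate 2 at 181.

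Cxcl13 (gene ID 55985, chr5:96385969-96390087), the B cell attractant of lymphoid follicles, lay the other way, as did the dim Cxcl11 (under 100 on every array). It read 171 and 127 with Men1 siRNA, against 57.4 and 64 with scramble siRNA. Both scramble siRNA arrays were under 100, so Cxcl13 was at least 1.47-fold higher (fitted log2 change 1.28 ± 0.33, limma adjusted p = 0.208). Its receptor Cxcr5 read 136 and 65.4 with Men1 siRNA and 36.9 and 82.5 with scramble siRNA, with overlapping groups.

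Of the 23 CC ligands, 7 lay higher on both Men1 siRNA arrays and 1 lay lower, against 25.8% and 21.7% of all genes. The 5 members on chromosome 4 all had positive changes, with a median of 0.74. The Ccl21 genes among them are near-identical copies, so signal from one can be read by targets of another. Ccl21b (gene ID 20298, chr4:41774206-41775337), a ligand of Ccr7 that draws T cells and dendritic cells into lymph nodes, read 1432 and 1972 with Men1 siRNA and 460.1 and 649 with scramble siRNA. The groups were separate, with a log2 change of 1.62 ± 0.36 (limma adjusted p = 0.165), and every value was above 100. Ccl21b lies wholly within the span of 4933409K07Rik, which read 903 and 1259 with Men1 siRNA, against 454 and 352 with scramble siRNA (log2 change 1.42), so the overlapping transcript shared the difference. Ccl21b passed in the authors' value table of bright targets (adjusted p = 0.0406) and with a prior that follows intensity (adjusted p = 0.02).

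Ccl21a (gene ID 18829) occupies the same place on MM9, chr4:41774236-41775337, so the 2 targets share 1102 bases of annotation. It read 1360.2 and 1721 with Men1 siRNA and 1320 and 1484 with scramble siRNA, with overlapping groups and a log2 change of 0.13 ± 0.32. This Ccl21a target also lies wholly within the span of 4933409K07Rik, and it did not share that transcript's difference. A second Ccl21a target, annotated at another place (chr4:42231057-42232176), gave 0.47 ± 0.38. This target lies wholly within Gm1987, which read 1173 and 1259 with Men1 siRNA, against 509 and 696 with scramble siRNA (log2 change 1.03). Ccl21c (gene ID 65956, chr4:42391949-42393080) read 1308 and 1227 with Men1 siRNA, against 842 and 903 with scramble siRNA (0.54 ± 0.30, adjusted p = 0.481). The 3 near-identical copies therefore gave changes from 0.13 to 1.62, and which copy a target measures was not tested.

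Ccl19 (chr4:41738656-41740646), the other ligand of Ccr7, read 765 and 1939 with Men1 siRNA and 716 and 559 with scramble siRNA, a log2 change of 0.95 ± 0.51 (adjusted p = 0.463). Without Men1 siRNA replicate 2 it was 0.27. Ccl27a, a skin chemokine that binds Ccr10, read 1067 and 1259 with Men1 siRNA and 555 and 868 with scramble siRNA (0.74 ± 0.37, adjusted p = 0.428). All 4 of its targets had positive changes, from 0.44 to 0.84, with the groups separate at each. One of these targets is annotated across 205792 bases that hold Ccl19 and Ccl21a, and another touches Il11ra1, whose targets had -0.54 and -0.67.

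**Figure D3:**
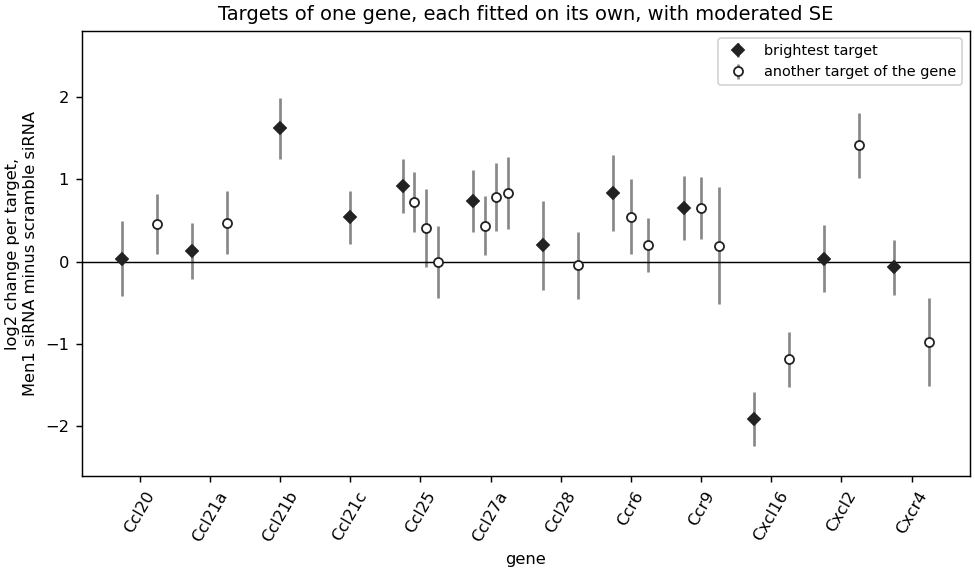
Log2 change (Men1 siRNA minus scramble siRNA) with its moderated SE for each target of 10 members with more than 1 target, and for the single targets of Ccl21b and Ccl21c. Filled diamonds are the brightest target of each gene. The 4 Ccl27a targets all lie above 0, the 4 Ccl25 targets run from 0.00 to 0.92, and the Cxcr4 targets differ.

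Ccl25 (gene ID 20300, chr8:4325209-4360020), a thymus and gut chemokine that binds Ccr9, read 543 and 493 with Men1 siRNA and 254 and 295 with scramble siRNA at its brightest target. The groups were separate, with a log2 change of 0.92 ± 0.31 (limma adjusted p = 0.294). The other 3 targets gave 0.73, 0.41 and 0.00, and the mean over all targets was 0.51. Ccr9, its receptor, read 122 and 71.9 with Men1 siRNA and 58.1 and 61.6 with scramble siRNA, a change of 0.65 ± 0.38 (adjusted p = 0.495) among values close to background.

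Ccl5, an inflammatory ligand whose receptors include Ccr1 and Ccr3, read 892 and 1209.8 with Men1 siRNA and 528 and 712 with scramble siRNA. The groups were separate with a log2 change of 0.76 ± 0.35 (adjusted p = 0.407), and Ccr1 and Ccr3 were under 100 on every array. Ccl24, an eosinophil attractant, read 181 and 188 with Men1 siRNA, against 174 and 131 with scramble siRNA (0.29 ± 0.33). Ccl17, a ligand of Ccr4, read 165 and 287 with Men1 siRNA, against 116 and 236 with scramble siRNA (0.39 ± 0.49), with overlapping groups.

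Ccl2 and Ccl6 had negative changes with overlapping groups. Ccl2, the main ligand of Ccr2, read 357 and 351 with Men1 siRNA and 571 and 322 with scramble siRNA (-0.27 ± 0.39, adjusted p = 0.785), and its sign turned without scramble siRNA replicate 1 (0.14). Ccl6, a myeloid chemokine of mouse, read 184 and 88.3 with Men1 siRNA and 335 and 162 with scramble siRNA (-0.87 ± 0.54, adjusted p = 0.516). Ccl6 lies within the transcript E230016K23Rik, which had -0.66. Ccl8 was the 1 CC ligand lower with separate groups, at 40.3 and 33.5 with Men1 siRNA, against 106 and 41 with scramble siRNA, with 3 of 4 values under 100. Ccl1, Ccl7, Ccl12, Ccl20 and Ccl22 stayed under 100 on every array.

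Cx3cl1 (gene ID 20312, chr8:97296125-97306326), the membrane-tethered chemokine of neurons, was well above background on every array. It read 6387 and 7595 with Men1 siRNA and 6777 and 5604 with scramble siRNA, with overlapping groups and a log2 change of 0.18 ± 0.32 (limma adjusted p = 0.835). Its receptor Cx3cr1, a microglial gene, read 92.2 and 33.2 with Men1 siRNA, against 63.6 and 105 with scramble siRNA. Xcl1 stayed under 100 throughout.

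Among the receptors, 4 of 10 CC receptors lay higher on both Men1 siRNA arrays and 0 lay lower, and of the 5 CXC receptors 0 lay higher and 2 (Cxcr3 and Cxcr6) lay lower, both under 100 on all arrays. Of all genes, 25.8% lay higher and 21.7% lower with separate groups, and with so few receptors these counts are not far from those shares. Ccr7, which guides lymphocytes and dendritic cells to lymph nodes, read 88.8 and 197 with Men1 siRNA and 52.8 and 31.6 with scramble siRNA. Only 1 of its 4 values reached 100, so the size of its log2 change, 1.69 ± 0.51 (limma adjusted p = 0.255), is uncertain. Ccr8, a receptor of Ccl1 on regulatory T cells, read 136 and 99.9 with Men1 siRNA and 39.2 and 38.1 with scramble siRNA (1.59 ± 0.33, adjusted p = 0.147), also with 1 value above 100. With every value under 100 set to 100 the changes were 0.49 for Ccr7 and 0.22 for Ccr8. Ccr6, the receptor of Ccl20, read 101 and 204 with Men1 siRNA and 95.4 and 67.6 with scramble siRNA, at least 1.43-fold higher (fitted 0.83 ± 0.45, adjusted p = 0.465). That bound rests on Men1 siRNA replicate 2, since replicate 1 was at 101. Of its other targets, one gave 0.55 with overlapping groups (93.6 and 141 with Men1 siRNA, against 109 and 56.8 with scramble siRNA), and one gave 0.20 and was under 100 on all arrays.

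Over the 29 members not named by the rule for single genes, values ran from 24.8 to 212 and log2 changes from -0.85 to 0.77. Ccl5, Ccl25 and Cx3cl1 were above 100 on all arrays while Ccr1, Ccr3, Ccr9 and Cx3cr1 did not reach it on both arrays of either group. Cxcl12 with Cxcr4 and Ackr3 was the axis with the ligand and both receptors above 100 on all 4 arrays.

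Genes around the family were described by lists. Of 14 other ligands and atypical or decoy receptors, which include Ackr3, 0 passed, with a median log2 change of 0.05. Ppbp, a platelet CXC chemokine, read 103 and 111 with Men1 siRNA and 25.9 and 27.3 with scramble siRNA, at least 1.07-fold higher, and Rarres2, the chemerin gene, had -1.66 ± 0.31 (adjusted p = 0.121). Of 29 measured genes of receptor signalling 0 passed and the median was 0.02. Plcb3, a phospholipase activated by G proteins, had -1.88 ± 0.31 and the kinase gene Jak2 -1.82 ± 0.39, while 9 genes of that list (31.0%) lay higher and 7 (24.1%) lower with separate groups, near the 25.8% and 21.7% of all genes.

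The cytokines and sensors that induce chemokines had a median log2 change of -0.67 over 25 measured genes. No gene of that list passed, 16 lay lower on both Men1 siRNA arrays (21.7% of all genes did) and 2 lay higher (25.8% of all genes did). Some of these were dim: of the 17 genes at 100 or more on both arrays of a group, 14 lay lower and 0 higher. Of all 15263 genes at that level, 4124 lay lower and 4511 higher. Il1r1 and Tlr3 reached that level only through the scramble siRNA arrays, where they were high. Myd88, the adaptor of Toll-like receptors, read 224 and 248 with Men1 siRNA, against 4929 and 2115 with scramble siRNA (-3.77 ± 0.48, adjusted p = 0.0591). Irf1 had -2.45 ± 0.51 and Tnfrsf1a, a TNF receptor gene, -2.01 ± 0.46. Of the NF-kB subunit genes, Rela had -0.12 with overlapping groups, and Nfkb1 had -1.14 with separate groups, at 216 and 450 with Men1 siRNA, against 819 and 572 with scramble siRNA. Of the 36 member genes with a promoter sequence, 9 hold an NF-kB match, and their log2 changes ran from -0.55 to 0.83 with a median of 0.04. Of the 9, Ccl20, Ccr3, Cxcl2 and Cxcl3 were under 100 on all arrays, and Ccl9 reached it on some arrays only. The median is the change of Cxcl2, whose values have no order. By promoter the match stood in 22.5% of 40 member promoters and in 4.51% of all 32851. The TATA box stood in 27.5% of member promoters against 13.6% of all, AP-1 in 17.5% against 7.81%, and the interferon element core in 5% against 3.44%.

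Of 14 measured genes for proteases and glycans that trim or hold chemokines, 1 passed, where 0.389% of all genes did. In that list 8 lay lower and 4 higher with separate groups, where 21.7% and 25.8% of all genes did. Mmp2, a gelatinase that can cleave Cxcl12, fell to 356 and 279 with Men1 siRNA, against 8517 and 4321 with scramble siRNA (-4.27 ± 0.43, limma adjusted p = 0.0403). That call, like the calls among the markers below, was lost with any 1 array left out. Dpp4, which trims the N terminus of Cxcl12 and Cxcl10, read 122 and 90.3 with Men1 siRNA, against 367 and 468 with scramble siRNA (-1.98 ± 0.34, adjusted p = 0.105). Ctsg lay the other way, at 136 and 166 with Men1 siRNA, against 62.2 and 76.9 with scramble siRNA. It was at least 1.5-fold higher (fitted log2 change 1.12 ± 0.33, limma adjusted p = 0.248).

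**Figure D4:**
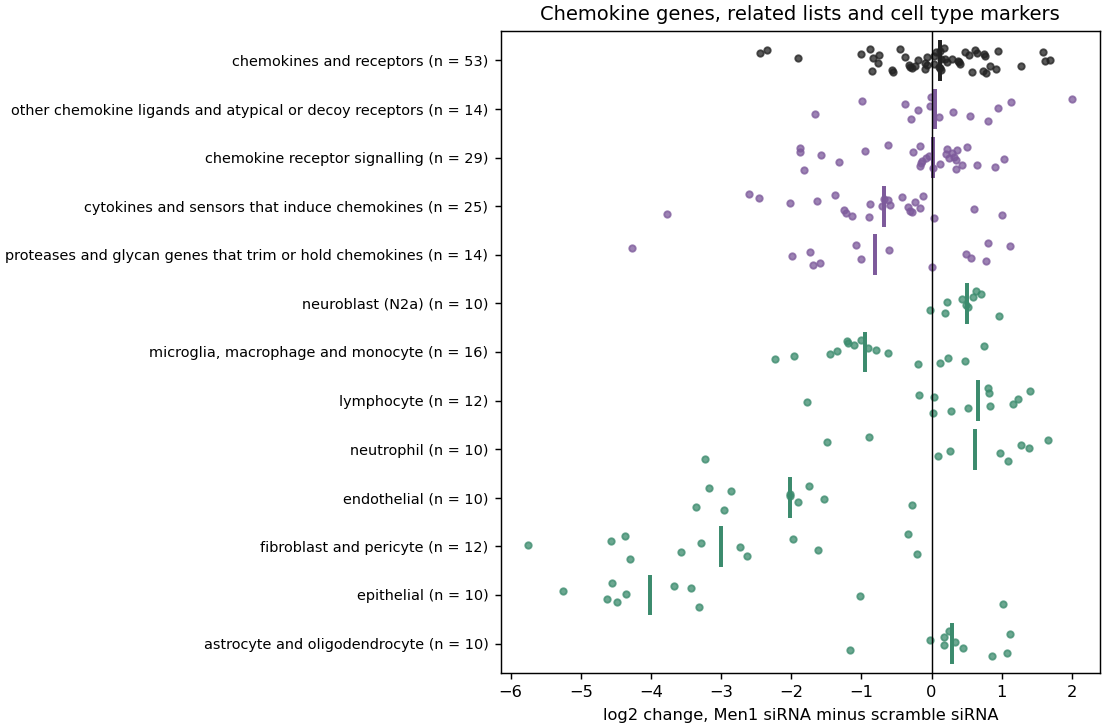
Log2 change (Men1 siRNA minus scramble siRNA) of each gene, by list, with a bar at the list's median. Black points are the 53 members, purple points genes around the family and green points cell type markers. The members' median is 0.12, and the epithelial markers' median is -4.02.

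Markers of other cell types moved with some of these genes. For the counts that follow, 21.7% of all genes lay lower and 25.8% higher with separate groups, and 0.389% passed the threshold in either direction. Of 10 epithelial markers 8 lay lower with separate groups, 4 of them past the threshold, and their summed intensity was 1247 and 2513 with Men1 siRNA, against 29737 and 18749.6 with scramble siRNA. All 12 fibroblast and pericyte markers lay lower, 5 past the threshold, with sums of 10259 and 9763 with Men1 siRNA, against 63697 and 59622 with scramble siRNA. Of 10 endothelial markers 9 lay lower, 2 past the threshold, with sums of 2262 and 2336 with Men1 siRNA, against 11900.5 and 8112 with scramble siRNA. Each of these 3 lists lay in the direction of Cxcl15, Cxcl16, Cxcl17 and Cxcl12, and their part in those values was not tested. In whole-culture RNA, fewer cells of a type and less RNA per cell cannot be told apart.

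Of 16 myeloid markers 11 lay lower and 1 higher (Tyrobp, 0.75) with separate groups, none past the threshold, with sums of 8723 and 12049 with Men1 siRNA, against 24885 and 17445.5 with scramble siRNA. Fcgr1 of that list was under 100 on all arrays. Of the lymphocyte markers, 7 of 12 lay higher and 2 lower, none past the threshold. Their sums were 4138 and 5595 with Men1 siRNA and 4212 and 2808 with scramble siRNA, which overlap. Ms4a1, which encodes the B cell protein CD20, had 1.40 ± 0.30, and Klrb1c, a natural killer cell receptor gene, had -1.77 with separate groups. Neutrophil markers were mixed, with 4 of 10 higher and 2 lower, 1 of them past the threshold: Ltf read 164 and 114 with Men1 siRNA, against 1171 and 1406 with scramble siRNA. Of 10 measured neuroblast markers 5 lay higher and 0 lower, with sums of 62115 and 58484 with Men1 siRNA, against 35891 and 49576 with scramble siRNA. Of 10 glial markers 4 lay higher and 1 lower. The neutrophil and glial counts are not far from the 25.8% and 21.7% of all genes that lay higher and lower. The part of these lists in the members' values was not tested.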

How the data were processed

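RNA of 2 Men1 siRNA and 2 scramble siRNA samples was hybridised to single-colour arrays. The series text names Agilent, whereas the labels' labelling protocol and the file format are NimbleGen's. The authors summarised each target, of up to 3 probes, by RMA (robust multi-array average) and deposited linear intensities, per the file headers and names. No source used here gives the scanner settings. The image name written inside the file of Men1 siRNA replicate 1 carries the number 2, and those of both replicates 2 are incomplete. Samples follow the labels. The authors' value table holds the 20620 targets at 100 or more on all arrays, 21 of them member targets, and its scramble columns hold each other's values.

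Symbols were updated by NCBI gene ID through RefSeq (GRCm38.p6; 52 of 53 member genes matched, and Ccl21b kept the file's name). Each gene was represented by its brightest target on the log2 scale. Log2 intensities, with no pseudocount or further scaling, were fitted with limma 3.58.1 in R 4.3.3 (lmFit, eBayes, group only, two-sided), adjusted over 24171 genes by Benjamini-Hochberg with a threshold of 0.05. Where both arrays of 1 group lay under 100, the fold is a bound: the other group's mean on the log2 scale against 100. It does not cover the spread between arrays. Intensities limit precision through the number of arrays. Named were Men1, members at 100 or more on both arrays of a group, members with separate groups and a change of 1 log2 unit or more, and per other list up to 4 genes of smallest p; others named in passing were chosen after their values were seen. Members and lists were chosen with earlier results of these data known. The fit was tested on simulated data. Same-numbered arrays did not deviate together (r = -0.20 over 15263 genes). That r changes sign if the scramble siRNA numbers are exchanged, so it cannot decide whether the arrays were paired. The reported fit used no pairing. Motifs were searched from 250 bases before to 50 after each RefSeq start; 36 member genes had one, some with several starts. Protein sequences were not used here. A few genes are not reported here; the counts include them. Tables and plots were made with matplotlib 3.10.9, numpy 2.4.6 and pandas 2.3.3 in Python 3.11.15.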

Additional observations from a re-analysis of the deposited data

How the results depend on the processing

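Over all genes, 94 passed, against none with crossed replicate numbers as a block (added after the data were seen), none with any 1 array left out (0 to 0), none at an adjusted p under 0.01 and 8 with values under 100 set to 100. More passed in the value table (418 of 12701), with dim genes left out (677 of 15263), with a prior that follows intensity (711), with a pseudocount of 32 (252) and target by target (150). With the replicate number as a block 69 passed. Of the members, 0 passed in the reported fit and with any 1 array left out, 1 in the value table (Ccl21b), 2 with dim genes left out (Cxcl15 and Cxcl16), 2 with a prior that follows intensity (Ccl21b and Cxcl15) and 1 with a pseudocount of 32 (Cxcl15). Cxcl15 and Cxcl16 entered the filtered set only through the scramble siRNA arrays, where they were high. The value table and the filter test fewer genes, but more than the adjustment differed. With dim genes left out, 3567 of 15263 genes had an unadjusted limma p under 0.05, against 3435 of 24171 in the reported fit. The SE of Cxcl15 was 0.31 there, against 0.35 in the reported fit. For every setting the cause of the extra calls was not tested. With the replicate block 0 members passed. The members' median of 0.12 ran from 0.03 to 0.14 with 1 array left out, and was 0.29 in the value table, which holds 15 of the genes, and 0.00 with the floor at 100. At an intensity of 200 in place of 100, 14 members were above it on both arrays of a group in place of 22. Of 312 values of named members under other settings, 303 kept their sign. The others turned. Cxcr4 took 0.022 under quantile normalization, and with 1 array left out it ran from -0.19 to 0.057 (positive without Men1 siRNA replicate 1, at 0.034, and without scramble siRNA replicate 1). Left-out arrays gave Ccl17 from -0.12 to 0.90 (negative without scramble siRNA replicate 1 or Men1 siRNA replicate 2), Ccl2 from -0.69 to 0.14 (positive without scramble siRNA replicate 1), Ccl21a from -0.041 to 0.30 and Cxcl10 from -0.35 to 0.47 (both negative without Men1 siRNA replicate 2). One Ccl25 target gave 0.00 (-0.0041). With 2 arrays per group, small changes cannot be resolved, and values under 100 have no order.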
